A study of Homo sapiens with 15 samples.

Results

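The mRNAs of translation initiation and elongation factors were followed in 12Z cells, an established line of human epithelial cells from an endometriotic lesion. Members were all protein-coding genes with a symbol that starts with EIF1 to EIF6 or with EEF1 or EEF2, without the EIF2AK kinases, and whose counts averaged 1 or more over the libraries. Of 67 such genes 63 reached that mean, among 23184 genes in all, and 62 are described because 1 lies on the Y chromosome. Of these, 9 were grouped as elongation factors and 6 as a kinase or methyltransferases that act on elongation factors. A group of 13 covers the 43S complex and the choice of the start codon, and 5 form eIF2B. Another 14 belong to eIF3, 11 were grouped as eIF4 factors and 4 as regulators of eIF4E. The grouping is coarse, with EIF1AD, EIF5B and EIF6 in the 43S group, EIF4A3 among the eIF4 factors and EEF1E1 among the elongation factors. The members under the minimum were EEF1G, EIF4E1B, EEF1AKMT4-ECE2 and EEF1E1-BLOC1S5.

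The 15 libraries formed 5 groups of 3. Controls received a pool of non-targeting siRNAs, empty pBabe vector and vehicle, and the other 4 groups received a pool of siRNAs against RSAD2 (siRSAD2). Of those 4, 2 had the empty vector and 2 a vector with PIK3CA H1047R, and for each vector 1 group had vehicle and 1 had 100 nM insulin for 24 hours, after 4 hours without serum. RSAD2 encodes viperin, an antiviral enzyme, and H1047R is an activating substitution in the catalytic subunit of phosphatidylinositol 3-kinase that was expressed from the plasmid beside the cells' own PIK3CA. Insulin and H1047R were therefore compared only in siRSAD2 cells, and 1 siRNA pool in 1 cell line stands for each siRNA. The non-targeting libraries carry the numbers 4 to 6 and all siRSAD2 libraries the numbers 1 to 3, so if a number marks an experiment, siRNA and experiment cannot be told apart.

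Initiation factors bring the small ribosomal subunit and the initiator tRNA to the start codon. The cap-binding complex eIF4F (eIF4E, eIF4G and the helicase eIF4A, aided by eIF4B) loads mRNA, eIF2 delivers the initiator tRNA and is recharged by eIF2B, and eIF3 holds the small subunit ready. eEF1A then delivers aminoacyl tRNA and eEF2 moves the ribosome along. Insulin acts on this machinery through phosphatidylinositol 3-kinase and mTORC1, which phosphorylates the eIF4E-binding proteins. Several elongation factor and eIF3 mRNAs, like those of ribosomal proteins, begin with a run of pyrimidines (a 5′ terminal oligopyrimidine, or TOP, motif) through which mTORC1 controls their translation. The values here are mRNA levels, not rates of translation.

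Libraries held 16.1 to 39.7 M counts on genes (median 24.3 M), and levels are counts per M of the TMM-scaled library (CPM). RSAD2 had 3, 3.16 and 3.69 CPM in the control libraries and 0.0768 to 1.41 CPM in the siRSAD2 libraries, and PIK3CA had 160 to 223 CPM with H1047R and 76.4 to 109 CPM without, so the labels held in every library. The labelled epithelial cells had KRT8 at 821 to 1150 CPM but EPCAM at no more than 0.61 CPM, CDH1 at no more than 1 CPM, and VIM at 1490 to 2400 CPM. With siRSAD2, 3 of 6 epithelial and 4 of 4 stromal markers were lower (edgeR adjusted p under 0.05), where 9.72% of all genes tested were lower. The part of these markers in the results was not tested. Some libraries stood apart. The siRSAD2 empty-vector vehicle library 3 held 8.31% unmapped reads against 3.97% to 5.45% elsewhere and 9.03 CPM of the immune marker PTPRC against at most 1.59 CPM elsewhere. The siRSAD2 empty-vector insulin library 2 differed from libraries 1 and 3 of its group with chi-square over its degrees of freedom at 12.5 and 13.6, against at most 6.52 in the other pairs within groups. Reads on the strand opposite to the gene made up 5.77% to 5.89% of counts in 8 libraries and 6.11% to 6.5% in the other 7, which are all 6 H1047R libraries and siRSAD2 empty-vector insulin library 3.

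Per kb of exons merged over all GENCODE transcripts of a gene, the mean level over all libraries was highest for EEF2 (725 CPM per kb), EEF1A1 (407 CPM per kb), EIF4G2 (166 CPM per kb) and EIF1 (125 CPM per kb). EEF2 is the translocase, EEF1A1 the carrier of aminoacyl tRNA, EIF4G2 an eIF4G relative that cannot bind eIF4E, and EIF1 a guardian of start codon choice. Together the 62 members took 1.69% of gene counts, with 0.756% from the 9 elongation factors. Levels were steady across the study: among the 60 members with at least 10 counts in every library, the median ratio of the highest to the lowest library was 1.33. EEF1G, the gamma subunit of the eEF1B exchange factor, was listed at 0 in every library, and 99.7% of its exon bases lie on the same strand under a read-through gene, ENSG00000255508, which had 3 to 15 counts, so the counting gave EEF1G no usable value. EIF4A1 (45 to 149 counts, with 47.4% of its exon bases under other genes on its strand), the near-identical EIF3C and EIF3CL, and EIF4EBP3 (0 to 0.172 CPM) are uncertain for like reasons.

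The annotated starts show which members carry a TOP-like beginning. RefSeq windows (GRCh38.p14) were found for 49 of the 62 members, and 13 of the 49 (26.5%) had at least 1 start with a C followed by at least 4 C or T, against 6.94% of all 13364 tested genes with a window and 4.07% of all 35116 windows of the same length. The sequences below run from 10 bases before the start to the twentieth base from it, on the gene's strand, and the capitals mark the run of pyrimidines that opens the transcript. The first 4 are members that were lower with siRSAD2, from the elongation, eIF4 and eIF3 groups.
EEF1A1 (chr6:73521013-73521042, minus strand): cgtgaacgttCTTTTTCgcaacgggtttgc
EEF2 (chr19:3985444-3985473, minus strand): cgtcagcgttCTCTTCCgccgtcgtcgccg
EIF4B (chr12:53006446-53006475, plus strand): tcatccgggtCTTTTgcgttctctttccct
EIF3F (chr11:7987327-7987356, plus strand): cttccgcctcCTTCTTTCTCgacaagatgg
The next 4 open in the same way and were also lower with siRSAD2, but they are not in the list of known TOP mRNAs used further on.
EIF2A (chr3:150546777-150546806, plus strand): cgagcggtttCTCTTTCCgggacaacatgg
EIF2S3 (chrX:24054946-24054975, plus strand): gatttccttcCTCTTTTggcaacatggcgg
EIF3D (chr22:36529147-36529176, minus strand): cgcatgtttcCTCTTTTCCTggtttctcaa
EIF3M (chr11:32583821-32583850, plus strand): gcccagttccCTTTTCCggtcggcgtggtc
Another 2 have the run but did not pass with siRSAD2, and EEF1B2 has the longest of all, 16 bases. EIF4A2, EIF2D and EIF2S3B also have the run and did not pass, and are not shown.
EEF1B2 (chr2:206159885-206159914, plus strand): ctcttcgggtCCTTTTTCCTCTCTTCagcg
EIF3K (chr19:38619178-38619207, plus strand): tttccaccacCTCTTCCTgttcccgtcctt
The last 2 lack the run and are shown for contrast, EIF2B5 as a member that was higher with siRSAD2 and EIF1B as a member that was lower.
EIF2B5 (chr3:184135348-184135377, plus strand): cagcttccttgcggaagtggtgaccgtgag
EIF1B (chr3:40309697-40309726, plus strand): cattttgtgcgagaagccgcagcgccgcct

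The siRSAD2 comparison in vehicle-treated empty-vector cells asked which genes differ between cells with the RSAD2 siRNA pool and cells with the non-targeting pool. Most translation factor mRNAs that changed were lower. Of the 62 members 18 passed (29%), 16 lower and 2 higher, by the quasi-likelihood test of edgeR over all genes with a Benjamini-Hochberg adjusted threshold of 0.05, where 19.5% of all genes passed, 9.72% lower and 9.82% higher. All genes tested had a median level of 3.19 CPM, below the mean level of most members. Shares of genes called, here and further on, were not matched for level. The median log2 fold change was -0.08 over the members and 0.02 over all genes tested, and no member that passed moved by 1.5-fold. The sum over all members was 19200, 19700 and 19500 CPM in control cells and 16600, 16900 and 17200 CPM with siRSAD2, so the groups did not overlap. Most of this gap of the sums lay in the elongation factors, with 9290, 9650 and 9410 CPM against 7440, 7690 and 7830 CPM. In these bulk libraries fewer cells of a kind and less RNA per cell cannot be told apart. All 6 libraries of this comparison are among the 8 with the lower share of opposite-strand reads. Groups did not overlap for 23 members that were lower and 7 that were higher, against 17.1% and 16.1% of all genes. Leaving out 1 library at a time left 15 to 18 members called, and 18 without siRSAD2 vehicle library 3. In these fits 14.7% to 17.3% of all genes passed.

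**Figure D1:**
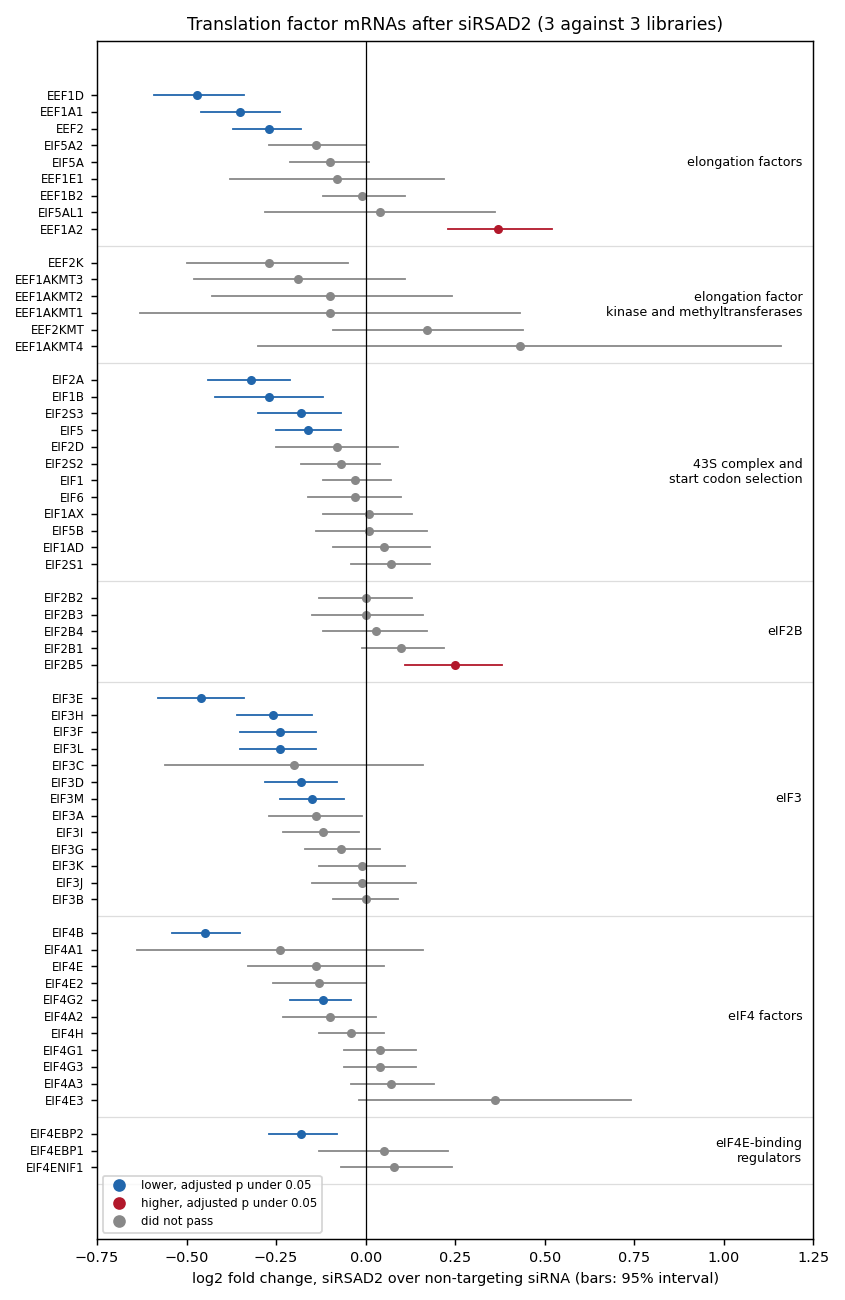
Log2 fold change with siRSAD2 (horizontal axis) of 59 members (vertical axis, grouped by role), with 95% intervals; blue and red mark members lower and higher at an adjusted p under 0.05, and EIF2S3B, EIF3CL and EIF4EBP3 are not drawn. The falls reach -0.47 for EEF1D, and the only rises are EEF1A2 and EIF2B5.

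Among the elongation factors 3 of 9 were lower and 1 was higher. EEF1A1 (ENSG00000156508.18, hg38 chromosome 6, 73489308 to 73525587) had 5110, 5450 and 5240 CPM in control cells and 4040, 4140 and 4220 CPM with siRSAD2, a log2 fold change of -0.35 ± 0.05 (SE, edgeR adjusted p = 2.02e-06). EEF2 (ENSG00000167658.16, chromosome 19, 3976056 to 3985463) had 3600, 3600 and 3570 CPM against 2870, 2990 and 3040 CPM (-0.27 ± 0.04, edgeR adjusted p = 2.25e-05). EEF1D (ENSG00000104529.17, chromosome 8), the delta subunit of the exchange factor that recharges eEF1A, had 151, 160 and 156 CPM against 103, 119 and 115 CPM (-0.47 ± 0.06, edgeR adjusted p = 1.6e-07). In all of these genes every siRSAD2 library was below every non-targeting library.

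The other measured part of that exchange factor, EEF1B2, had 128 ± 5.47 CPM (SD, n = 3) and 127 ± 5.32 CPM. Its log2 fold change of -0.01 had a 95% interval of -0.12 to 0.11, which does not reach the fall of EEF1D. EEF1A2 (ENSG00000101210.12, chromosome 20, 63488013 to 63499239), the eEF1A paralogue of neurons and muscle, moved the other way, from 52.4, 49.7 and 53.8 CPM to 63.8, 70.7 and 67.6 CPM (0.37 ± 0.06, edgeR adjusted p = 4.38e-05). The ratio of EEF1A1 to EEF1A2 counts was 102 ± 7.04 (SD, n = 3) in control cells and 61.4 ± 2.53 with siRSAD2, and it stayed at 57.4 to 65.7 in the mean of each other siRSAD2 group. Named pseudogenes, to which reads of a gene can be misassigned, amounted to 1.65% of EEF1A1, with 191 CPM in siRSAD2 vehicle library 3 and 49 to 68.4 CPM elsewhere, and adding pseudogene counts to the members gave 19 calls, with EIF4A1 as a rise that rested on that library. EIF5A, EIF5A2, EEF1E1 and EIF5AL1 had log2 fold changes between -0.14 and 0.04 and did not pass.

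The kinase and methyltransferases of elongation factors gave no call among 6 members. EEF2K, the kinase that inactivates eEF2, had 11.9, 12.4 and 11.2 CPM in control cells and 11, 9.76 and 8.71 CPM with siRSAD2 (-0.27 ± 0.1, edgeR adjusted p = 0.0581). The groups did not overlap, but the difference missed the threshold. In the other siRSAD2 libraries EEF2K stayed below every control value, at 9.6, 9.62 and 8.93 CPM with insulin and empty vector, 10.4, 9.65 and 8.47 CPM with H1047R and vehicle, and 9.59, 8.77 and 9.4 CPM with H1047R and insulin.

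Of the 14 eIF3 members 6 were lower and none was higher. EIF3E (ENSG00000104408.10, chromosome 8, 108162787 to 108443496) led, with 352, 413 and 395 CPM against 283, 280 and 281 CPM (-0.46 ± 0.05, edgeR adjusted p = 2.11e-07). It stayed below every control value in the other groups, at 285, 318 and 273 CPM with insulin and empty vector, 265, 290 and 258 CPM with H1047R and vehicle, and 268, 276 and 271 CPM with H1047R and insulin. EIF3H, EIF3F and EIF3L followed at -0.26, -0.24 and -0.24, each with an SE of 0.05, then EIF3D at -0.18 ± 0.05 and EIF3M at -0.15 ± 0.04. EIF3D can bind the cap itself, and EIF3F and EIF3H form a pair of related subunits of eIF3. Of the other subunits, EIF3B was at 0.00 ± 0.04 with a 95% interval of -0.09 to 0.09, and EIF3A at -0.14 ± 0.06 (edgeR adjusted p = 0.103). EIF3G was at -0.07 ± 0.05 and EIF3I at -0.12 ± 0.05 (edgeR adjusted p = 0.0692), and none of these subunits passed. EIF3J and EIF3K, both at -0.01, did not pass either. EIF3C at -0.20 ± 0.16 did not pass, and its near-identical copy EIF3CL had too few counts to read. The call of EIF3M was lost without non-targeting library 6, without siRSAD2 vehicle library 1 and with unstranded counts, where its adjusted p reached up to 0.0875.

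Among the eIF4 factors EIF4B had the smallest p of all members. EIF4B (ENSG00000063046.17, chromosome 12, 53006282 to 53042215), which stimulates the eIF4A helicase and is itself a target of kinases below mTORC1, had 624, 628 and 648 CPM in control cells and 461, 460 and 474 CPM with siRSAD2 (-0.45 ± 0.04, edgeR adjusted p = 2.05e-09). EIF4G2 was lower at -0.12 ± 0.04 (edgeR adjusted p = 0.0203), a call that was lost without non-targeting library 6, siRSAD2 vehicle library 1 or siRSAD2 vehicle library 2, with an adjusted p of up to 0.238. The parts of eIF4F gave no call. EIF4E had 66.8, 71.3 and 68.2 CPM against 65, 58.5 and 63.6 CPM (-0.14 ± 0.08, 95% interval -0.33 to 0.05). EIF4G1, the scaffold, had 685, 658 and 680 CPM against 692, 692 and 694 CPM (0.04 ± 0.05, 95% interval -0.06 to 0.14). Every siRSAD2 value of EIF4G1 was above every control value, but the difference did not pass (edgeR adjusted p = 0.628).

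EIF4A1, the main eIF4A helicase in most cells, had 3.68, 2.95 and 3.05 CPM against 2.49, 2.77 and 2.95 CPM (-0.24 ± 0.18, edgeR adjusted p = 0.405). Its named pseudogenes had 1.29, 2.12 and 1.63 CPM against 1.94, 2.23 and 16.8 CPM, so that of these libraries they exceeded the gene only in siRSAD2 vehicle library 3. With the pseudogenes added the change of EIF4A1 was 0.99 ± 0.31 on the log2 scale (edgeR adjusted p = 0.0224), and without that library it was -0.07 ± 0.16 (edgeR adjusted p = 0.854), so the rise rested on that library and no direction is given. In the other groups EIF4A1 was at 2.64, 3.48 and 2.8 CPM with insulin and empty vector, 3.5, 3.76 and 2.74 CPM with H1047R and vehicle, and 2.18, 2.98 and 3.02 CPM with H1047R and insulin, without a call. The pseudogenes of EIF4A1 had 2.72, 2.4 and 3.22 CPM, 4.24, 3.31 and 3.19 CPM, and 3.05, 3.88 and 4.09 CPM in the same libraries. They exceeded the gene in most of these libraries, and over all libraries their mean was 125% of that of the gene. Among the regulators of eIF4E, EIF4EBP2, a binding protein that represses eIF4E, was lower (-0.18 ± 0.04, edgeR adjusted p = 0.0026) and lost its call without siRSAD2 vehicle library 2 (adjusted p = 0.0587). EIF4EBP1 had 58.7, 58.1 and 61.4 CPM against 58.7, 63.9 and 62.1 CPM (0.05 ± 0.08, 95% interval -0.13 to 0.23). The values of EIF4EBP1 overlapped between the groups.

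In the 43S and start codon group 4 of 13 members were lower and none was higher. EIF2A, a factor separate from eIF2 that can deliver initiator tRNA, was at -0.32 ± 0.05 (edgeR adjusted p = 2.32e-05), and EIF1B, a paralogue of EIF1, at -0.27 ± 0.07 (edgeR adjusted p = 0.00436). EIF2S3, the gamma subunit of eIF2, was at -0.18 ± 0.05 (edgeR adjusted p = 0.0109), and EIF5, which makes eIF2 hydrolyse its GTP, at -0.16 ± 0.04 (edgeR adjusted p = 0.00448). The call of EIF2S3 was lost without non-targeting library 6, siRSAD2 vehicle library 2 or siRSAD2 vehicle library 3, with an adjusted p of up to 0.116. The alpha subunit EIF2S1, the target of the stress kinases, had 185, 188 and 185 CPM against 194, 196 and 197 CPM (0.07 ± 0.05, edgeR adjusted p = 0.362). Its groups did not overlap, but the difference did not pass. EIF2S3B, a near copy of EIF2S3, had 4.62 CPM in siRSAD2 vehicle library 3 and at most 1.57 CPM in every other library, so its log2 fold change of 1.18 ± 0.5 (edgeR adjusted p = 0.0982) rested on that library. Of the 5 subunits of eIF2B 1 was higher and none was lower. EIF2B5, the catalytic subunit, had 41.8, 44.8 and 44.5 CPM against 53.3, 50.9 and 51.3 CPM (0.25 ± 0.06, edgeR adjusted p = 0.00275), with no overlap, and the other 4 subunits lay between 0 and 0.10.

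The falls were set against the annotated start. Of the 13 members with a pyrimidine run 8 were lower with siRSAD2 (61.5%) and none was higher, and of the 36 members with another start 4 were lower (11.1%) and 1 was higher. Over all tested genes with a window, 22.1% of 927 with the run and 12.8% of 12437 without it were lower. The median log2 fold change was -0.18 for members with the run and -0.02 for the others, and -0.05 and 0.00 for all genes. The 8 are EIF4B, EEF1A1, EIF2A, EEF2, EIF3F, EIF2S3, EIF3D and EIF3M, and those with the run that did not pass are EEF1B2, EIF3K, EIF4A2, EIF2D and EIF2S3B. A match of letters at an annotated start is a description, and the start used in 12Z cells was not measured. In a list of 9 genes known for TOP mRNAs (EEF1A1, EEF1B2, EEF1D, EEF1G, EEF2, EIF3E, EIF3F, EIF3H and EIF4B), 7 of the 8 that were tested were lower, EEF1B2 being the exception, against 9 of 54 lower and 2 higher among the remaining members. The median log2 fold change was -0.31 in the list and -0.05 in the remaining members. This list was chosen with earlier results of these data known. EEF1A1, EEF1B2, EEF2, EIF3F and EIF4B are in both the list and the set with the run, so the list is not a separate test. Windows for EEF1D, EIF3E, EIF3H and EIF3L were not used here.

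**Figure D2:**
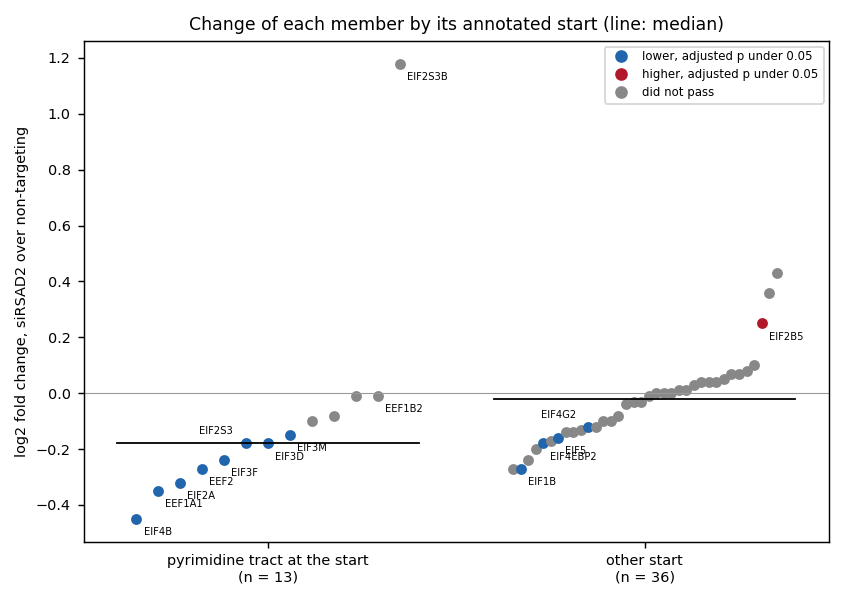
Log2 fold change with siRSAD2 (vertical axis) of the 49 members with a RefSeq window, split by whether an annotated start opens with a C and at least 4 more pyrimidines (13 members) or not (36 members); points are members, colours mark calls and lines are medians. Members with the run have a median of -0.18 and hold 8 of the 12 falls drawn.

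The effect of insulin was read first in siRSAD2 cells with the empty vector. EIF5, EIF2B3, EIF2S2 and EIF4E were higher and EEF2, EIF3F and EIF4B were lower. Of the 62 members 7 passed (11.3%), 4 higher and 3 lower, where 6.28% of all genes passed, 2.1% higher and 4.19% lower (edgeR adjusted p under 0.05), and the median over the members was -0.02. Groups did not overlap for 5 higher and 8 lower members, against 9.28% and 9.6% of all genes. With only the 6 libraries compared in the fit 0 of the 62 passed (2.23% of all genes did), and 3 passed without siRSAD2 vehicle library 3, 4 without siRSAD2 vehicle library 2 and 4 without insulin library 2. Without insulin library 3, where the remaining libraries share the lower share of opposite-strand reads, 6 passed. Over the fits with 1 library left out, 4.14% to 7.93% of all genes passed.

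EIF5 had the smallest p, with 307, 307 and 308 CPM with vehicle and 338, 365 and 350 CPM with insulin (0.19 ± 0.04, edgeR adjusted p = 0.00221). The non-targeting libraries had 340, 344 and 344 CPM of EIF5, above all vehicle values and among those with insulin. Both comparisons use the same siRSAD2 vehicle libraries, so the fall and the rise of EIF5 are not separate results. EIF2B3, the gamma subunit of eIF2B, had 26.4, 26.9 and 28.2 CPM against 30.1, 34.5 and 33.6 CPM (0.27 ± 0.07, edgeR adjusted p = 0.0163). EIF2S2, the beta subunit of eIF2, had 164, 171 and 170 CPM against 188, 204 and 173 CPM (0.16 ± 0.05, edgeR adjusted p = 0.0471). The groups did not overlap for any of these genes, but the call of EIF2B3 was lost without vehicle library 1 or 2 or insulin library 2 or 3 (adjusted p of 0.0628 to 0.0787). That of EIF2S2 was lost without any 1 of vehicle libraries 1 to 3 or of insulin libraries 1 and 2 (0.0626 to 0.258).

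EIF4E, the cap-binding protein, had 65, 58.5 and 63.6 CPM with vehicle and 68.1, 94.8 and 65.9 CPM with insulin (0.29 ± 0.09, edgeR adjusted p = 0.0333). The high value was that of insulin library 2, and without that library the change was 0.10 ± 0.06 (edgeR adjusted p = 0.426). That library also held the highest level of 13 of the 60 members with at least 10 counts in every library. Non-targeting libraries 6 and 5 held the highest level of 12 and 8 of them. EIF4E lost its call without vehicle library 2 or 3 as well.

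EEF2 fell further with insulin, from 2870, 2990 and 3040 CPM to 2830, 2500 and 2550 CPM (-0.18 ± 0.04, edgeR adjusted p = 0.0117), and lost its call without vehicle library 3 (adjusted p = 0.0629). EIF3F went from 176, 190 and 190 CPM to 171, 159 and 163 CPM (-0.17 ± 0.05, edgeR adjusted p = 0.0257). EIF4B went from 461, 460 and 474 CPM to 418, 427 and 393 CPM (-0.17 ± 0.04, edgeR adjusted p = 0.0101), a call that no left-out library removed. All insulin values were below all vehicle values for each of these genes. EIF3F lost its call without vehicle library 2 or 3 or insulin library 2 (0.0674 to 0.0971). With a term for the opposite-strand share, which in this comparison rests on insulin library 3 alone, the changes stayed close in size but missed the threshold, with EIF3F at -0.17 ± 0.05, EIF4B at -0.14 ± 0.04 and EIF2B3 at 0.25 ± 0.08 (edgeR adjusted p = 0.063, 0.0561 and 0.0552). EEF2, EIF3F and EIF4B were also lower with siRSAD2, and the siRSAD2 vehicle libraries are shared by these comparisons. EEF1A1 had 3870, 4270 and 3510 CPM with insulin, which overlapped the vehicle values (-0.09 ± 0.05, edgeR adjusted p = 0.301). EIF4EBP1 at 69.1, 48.6 and 59.4 CPM and EIF4G1 at 728, 686 and 635 CPM spread around the vehicle values, and EIF2S1 had 196, 233 and 198 CPM (0.10 ± 0.05, edgeR adjusted p = 0.31).

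In siRSAD2 H1047R cells insulin changed 1 member, EIF4B. Of the 62 members 1 passed (1.61%) where 2.47% of all genes passed, 1.99% lower and 0.483% higher, and with only the 6 libraries compared in the fit 6 passed, 3 lower and 3 higher, where 5.4% of all genes did. Groups did not overlap for 12 higher and 7 lower members, against 8.83% and 10.5% of all genes. EIF4B had 441, 469 and 434 CPM with vehicle and 374, 372 and 363 CPM with insulin (-0.28 ± 0.04, edgeR adjusted p = 6.28e-05). All insulin libraries lay below all vehicle libraries, and the call held in all 16 alternatives, with log2 fold changes of -0.29 to -0.24. EIF4EBP2 had a log2 fold change of -0.15 ± 0.04 (edgeR adjusted p = 0.0505) and EIF5 of 0.13 ± 0.04 (edgeR adjusted p = 0.0988), so neither passed. EIF5 had 317, 314 and 326 CPM with vehicle and 348, 353 and 344 CPM with insulin, with no overlap. EIF4EBP1 had 52, 54.4 and 52 CPM against 67.8, 55.3 and 59.8 CPM (0.21 ± 0.08, edgeR adjusted p = 0.276), again without overlap. EIF4E had 56.8, 60.7 and 58.8 CPM against 60.7, 69.9 and 66 CPM (0.15 ± 0.09, 95% interval -0.04 to 0.35). The difference between the insulin responses with and without H1047R passed for 0 of the 62 members with edgeR, where it passed for 0 of all 23184 genes. With DESeq2 it passed for 0 members, and 3 members had an unadjusted p under 0.05 with edgeR. For EIF4B this difference was -0.10 ± 0.06 (95% interval -0.24 to 0.03). The lowest EIF4B values of the study were those of siRSAD2 H1047R cells with insulin, at 370 ± 5.68 CPM (SD, n = 3), against 634 ± 13.1 CPM with the non-targeting siRNA.

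**Figure D3:**
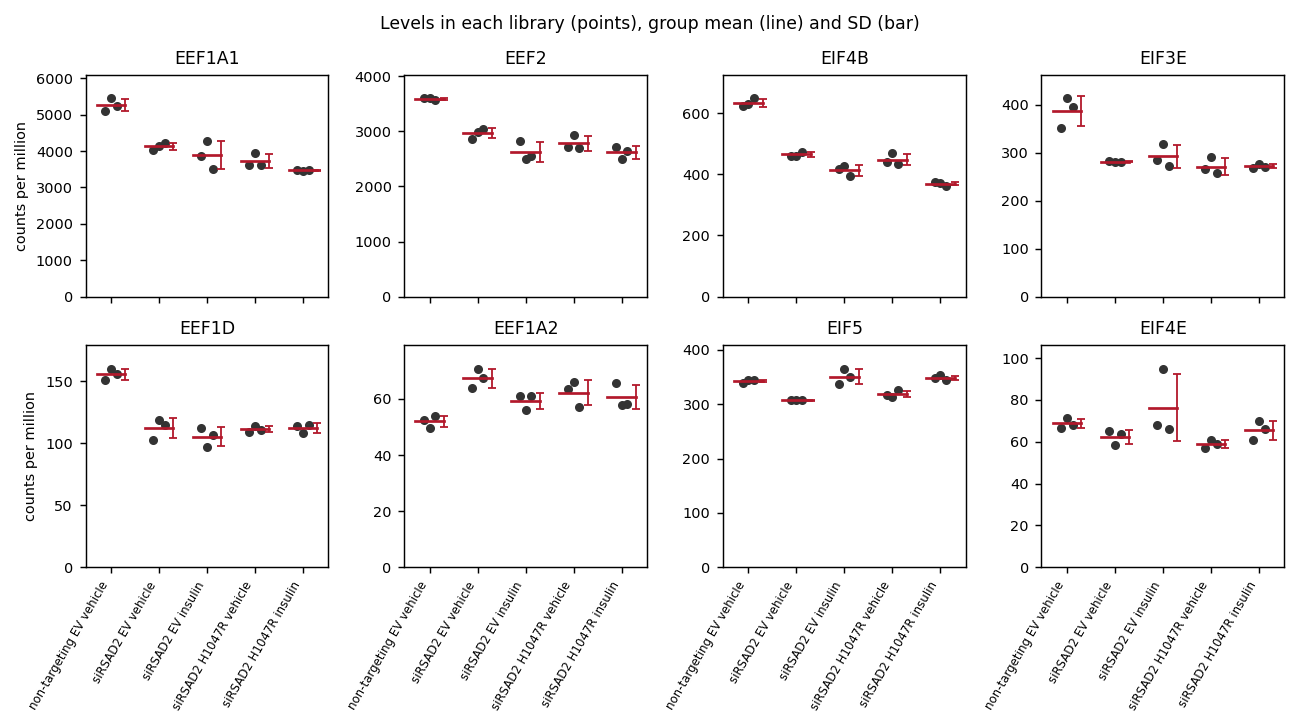
Levels in CPM (vertical axes, from 0) of 8 members in the 5 groups (horizontal axes); points are libraries, lines are group means and bars the SD of 3 libraries. EIF4B goes from 634 CPM with the non-targeting siRNA to 465 CPM with siRSAD2 and 370 CPM with siRSAD2, H1047R and insulin, and the 94.8 CPM point of EIF4E is siRSAD2 empty-vector insulin library 2.

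The effect of H1047R was read in siRSAD2 cells, where few translation factor mRNAs passed, in numbers that depended on the libraries fitted. With vehicle 1 of the 62 members passed (1.61%), EIF3G, where 1.36% of all genes passed, 0.742% lower and 0.621% higher. With only the 6 libraries compared in the fit 6 members passed, all lower, where 2.28% of all genes passed. Groups did not overlap for 7 higher and 13 lower members, against 10% and 8.99% of all genes. EIF3G, an RNA-binding subunit of eIF3, had 164, 171 and 171 CPM with empty vector and 144, 152 and 149 CPM with H1047R (-0.19 ± 0.05, edgeR adjusted p = 0.035), with no overlap. All 3 H1047R libraries and none of the empty-vector libraries had the higher share of opposite-strand reads, and with a term for that share the change was -0.04 ± 0.08 (edgeR adjusted p = 0.982). That term can be separated from H1047R only through siRSAD2 empty-vector insulin library 3, so share and H1047R can hardly be told apart here. The call was also lost without siRSAD2 vehicle library 2 or 3 and without any of the 3 H1047R vehicle libraries. EEF1A1 had 3630, 3960 and 3610 CPM with H1047R (-0.15 ± 0.05, edgeR adjusted p = 0.133), below each of the 3 empty-vector values. EEF2 had 2720, 2930 and 2690 CPM, which overlapped (-0.09 ± 0.04, edgeR adjusted p = 0.371). EIF4EBP1 was at 52 to 54.4 CPM with H1047R and at 58.7 to 63.9 CPM without (-0.22 ± 0.08, edgeR adjusted p = 0.212), and EIF4G1 at 622, 650 and 626 CPM against 692 to 694 CPM (-0.13 ± 0.05, edgeR adjusted p = 0.174). EIF2S1 had 191, 189 and 190 CPM with H1047R (-0.04 ± 0.05, edgeR adjusted p = 0.813). The groups did not overlap for EIF4EBP1, EIF4G1 and EIF2S1, and none of these genes passed.

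With insulin 0 of the 62 members passed with edgeR and 1 with DESeq2, where 0.285% of all genes passed with edgeR (0.22% higher and 0.0647% lower), and 11 members had an unadjusted p under 0.05. Groups did not overlap for 3 higher and 3 lower members, against 6.99% and 5.79% of all genes. Without siRSAD2 empty-vector insulin library 3, the only empty-vector library with the higher opposite-strand share, 6 members passed, 5 lower and 1 higher, where 1.99% of all genes passed. EIF4B had a log2 fold change of -0.16 ± 0.04 (edgeR adjusted p = 0.109) and EEF1A1, at 3470, 3460 and 3480 CPM with H1047R, of -0.16 ± 0.05 (edgeR adjusted p = 0.162), and neither gene's groups overlapped. For EEF2, at 2720, 2490 and 2640 CPM with H1047R, the log2 fold change was 0.00 ± 0.04, with a 95% interval of -0.10 to 0.09. EIF4G1 had 687, 626 and 674 CPM with H1047R and EIF2S1 had 204, 212 and 210 CPM, and both overlapped the empty-vector values.

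**Figure D4:**
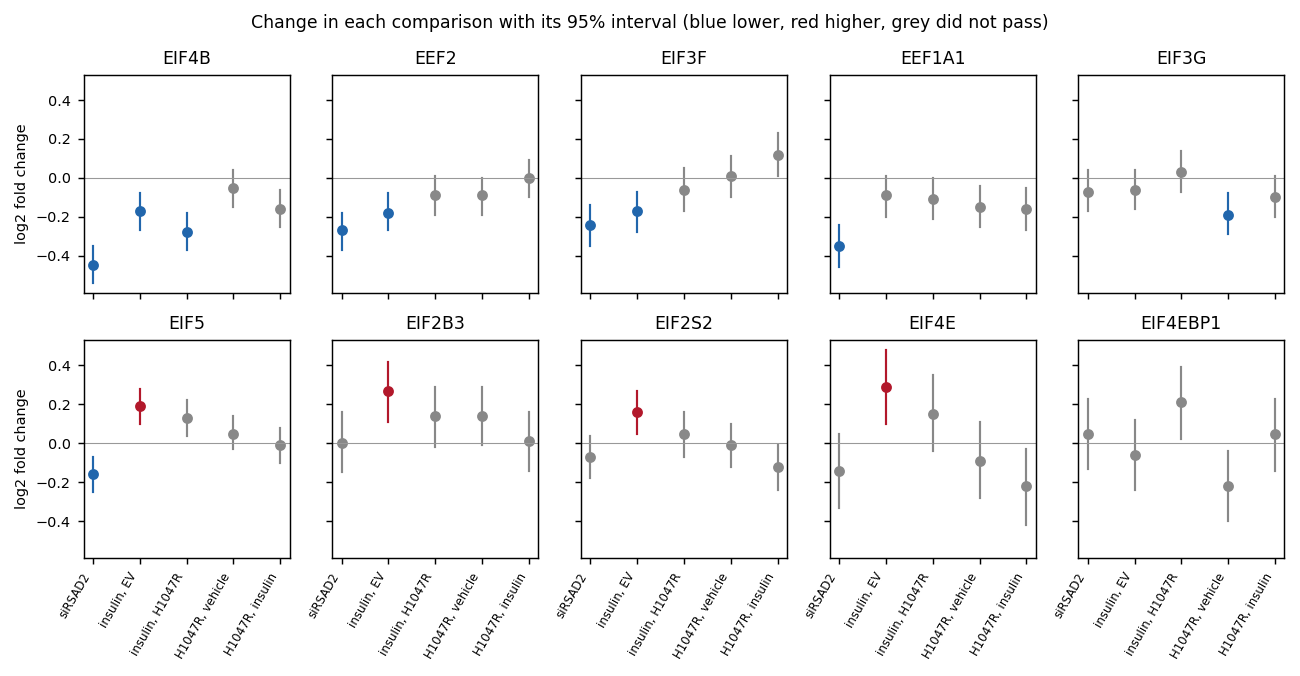
Log2 fold change (vertical axes) of 10 members in the 5 comparisons (horizontal axes), with 95% intervals; blue marks members lower and red members higher at an adjusted p under 0.05. EIF4B is lower with siRSAD2 and with insulin on either vector, and EIF5 is lower with siRSAD2 and higher with insulin in empty-vector cells. The siRSAD2 empty-vector vehicle libraries are shared by both comparisons in which EIF5 passed.

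Other genes of the pathway were read from fixed lists. Among 20 controllers of initiation 4 were higher and 4 lower with siRSAD2 (40% called, against 19.5% of all genes). PABPC1, the poly(A)-binding protein and itself a TOP mRNA, went from 1770, 1730 and 1780 CPM to 1310, 1310 and 1320 CPM (-0.43 ± 0.05, edgeR adjusted p = 1.06e-07). MKNK2, a kinase that phosphorylates eIF4E, went from 108, 112 and 109 CPM to 133, 137 and 142 CPM (0.33 ± 0.05, edgeR adjusted p = 2.85e-05). In these genes the groups did not overlap. Insulin lowered PPP1R15A, the phosphatase subunit that reverses the phosphorylation of eIF2, by 0.40 ± 0.07 in empty-vector cells (edgeR adjusted p = 0.000264) and by 0.47 ± 0.07 in H1047R cells (edgeR adjusted p = 4.04e-05), as the 1 call among the 20 in each. In these comparisons 6.28% and 2.47% of all genes passed. With H1047R and vehicle PABPC1 was the 1 call, at -0.20 ± 0.05 (edgeR adjusted p = 0.0353), where 1.36% of all genes passed. In that comparison H1047R and the opposite-strand share can hardly be told apart, and the term for that share was not read for PABPC1.

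The shares called in the other lists did not exceed the 19.5% of all genes called with siRSAD2. Among 8 genes of release and recycling only HBS1L, a ribosome rescue factor, passed (12.5%, -0.26 ± 0.05, edgeR adjusted p = 0.000311). Of 11 genes that modify factors 2 were lower (18.2%), DPH6 at -0.68 ± 0.16 and DPH5 at -0.30 ± 0.09 (edgeR adjusted p = 0.00271 and 0.0123). Both act in making diphthamide, the modified histidine of eEF2, and the other genes of that step in the list, DPH1, DPH2, DPH3, DPH7 and DNAJC24, did not pass, at -0.14 to 0.09. Of 11 mitochondrial factors 2 were lower (18.2%), GFM2 at -0.25 ± 0.05 and TSFM at -1.17 ± 0.37 (edgeR adjusted p = 0.000513 and 0.0252), and TSFM was near the limit of detection at 0.346 to 1.08 CPM. With insulin in empty-vector cells GFM1, the mitochondrial counterpart of eEF2, was higher at 0.21 ± 0.05 (edgeR adjusted p = 0.0142). It was the 1 call among those 11, where 6.28% of all genes passed.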

How the data were processed

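RNA was sequenced from 15 libraries of 12Z cells (500 ng of total RNA, poly(A) kit, paired-end reads). Per the submitters' processing notes, FastQC, cutadapt and Trim Galore were run before alignment by STAR to hg38, and the authors deposited the raw counts of genes for each library, not normalised. Versions are not given in the sources used here, and the annotation release they name is numbered as a mouse release. Reverse-stranded counts were used, and 4 summary entries per library were kept apart. Of 60617 identifiers 60357 matched GENCODE release 44, which gave symbols, biotypes and coordinates.

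Genes averaging 1 count or more over the libraries entered 1 fit of all libraries in edgeR 4.0.16 (R 4.3.3) with a mean per group, TMM scaling and the quasi-likelihood test (10 residual degrees of freedom), tested on simulated data. Adjustment was by Benjamini-Hochberg over all 23184 genes, and ± after a log2 fold change is its SE. The study states independent experiments per condition. Members, roles and lists were chosen with earlier results of these data known. The text gives the libraries compared for the 4 largest rises and falls among members that passed in each comparison and every library for EEF1A1, EEF2, EIF4E, EIF4G1, EIF4A1, EIF4EBP1, EIF2S1, EIF3E and EEF2K, other members that passed by their value, and from each other list the 2 smallest p among genes that passed. Alternatives were DESeq2 1.42.0, RLE factors, other filters, an adjusted p of 0.001, fits on the compared groups alone, unstranded counts, each library left out and the replicate block. A term for the opposite-strand share and the addition of pseudogenes, also without siRSAD2 vehicle library 3, were chosen after seeing the data. Start windows come from RefSeq. Other members that did not pass, and PTPRC, were named after their values were seen.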

Additional observations from a re-analysis of the deposited data

Results flagged for a closer look

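Reads counted on the 146 named pseudogenes of the members stood outside the main measurement. Their sum was 255 CPM in siRSAD2 empty-vector vehicle library 3, against 97.8, 102 and 105 CPM in the control libraries and 79.6 to 105 CPM in the other 14 libraries as a whole, which marked it for a closer look. The same library had 4.62 CPM of EIF2S3B. Without it 18 members were called with siRSAD2, and 3 with insulin in empty-vector cells. The part of these reads in the results was not tested beyond that.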

How the results depend on the processing

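Counts of members called were 18 with siRSAD2, 7 with insulin and empty vector, 1 with insulin and H1047R, 1 with H1047R and vehicle, 0 with H1047R and insulin, and 0 for the interaction. RLE factors, unstranded counts and added pseudogenes kept each of these within 1.5 times. An adjusted p of 0.001 left 10 with siRSAD2, 0 with insulin and empty vector and 0 with H1047R and vehicle. With only the compared groups in the fit the counts were 0 for insulin with empty vector, 6 for insulin with H1047R and 6 for H1047R with vehicle. DESeq2 gave 3 for insulin with H1047R and 1 for H1047R with insulin. The filter of edgeR gave 2 for insulin with H1047R, and no filter gave 3 for H1047R with vehicle and 3 for H1047R with insulin. The term for the opposite-strand share gave 4 for insulin with empty vector, 2 for insulin with H1047R and 0 for H1047R with vehicle. With 1 library left out the counts ran from 15 to 18 for siRSAD2, 3 to 8 for insulin with empty vector, 1 to 1 for insulin with H1047R, 0 to 1 for H1047R with vehicle, 0 to 6 for H1047R with insulin and 0 to 0 for the interaction. EIF4A1 reversed to 0.99 with siRSAD2 when its pseudogenes were added, which rested on siRSAD2 vehicle library 3, and was at -0.07 with that library left out, where 18 members passed. The term is separable from H1047R only through insulin library 3 of the empty vector. The cause of these differences was not tested.

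Replicate numbers 1 to 3 did not pair the siRSAD2 groups as a whole. Deviations of libraries with the same number correlated at -0.13 to 0.16, and 7 of 12 libraries correlated better on average with their own number than with others. Between the insulin groups of the vectors, the correlations were 0.16, 0.14 and 0.09 for the same number and -0.15 to 0 for different numbers. A replicate block gave 8, 1, 1, 0 and 0 calls for insulin with empty vector, insulin with H1047R, H1047R with vehicle, H1047R with insulin and the interaction. No block was possible for siRSAD2, whose groups share no number. Values were counted for members that passed in a comparison and, in every comparison except the interaction, for the members given with every library. Under the other settings 627 values kept their side of the threshold, 31 lost the threshold, 11 gained it and 1 reversed. With 1 library left out 368 kept their side, 30 lost the threshold and 4 gained it. A change of sign was counted only where the value passed in the main fit or in the alternative. EIF3CL had 1 to 8 counts and EIF4EBP3 0 to 4 counts in a library, which limits their precision.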
